A study of Mus musculus with 9 samples.

Results

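Serum albumin and 9 other plasma carrier genes (Alb, Ttr, Rbp4, Gc, Ahsg, Fetub, Ambp, Hpx, Serpina6 and Afm) were followed through 9 mouse RNA-seq libraries. They were taken by symbol. All 10 were found among the 16231 genes of the count table, and all 10 passed the filter on low counts, which left 12747 genes for testing. Library totals ran from 34240500 to 39922044 counts. The libraries form 3 groups of 3: young mice, aged mice, and aged mice given EGCG (epigallocatechin gallate, a catechin of green tea), and the labels call every library retina. The title of the study places it in damage to the retinal pigment epithelium and EGCG. No source used here gives strain, age in weeks, dose or duration. Nothing in the labels says that a group's libraries are separate animals. The p-values therefore cover only the spread among libraries of a group, and that spread may be technical.

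Plasma carriers are secreted proteins that hold poorly soluble or reactive cargo in blood: fatty acids, retinol, thyroid hormone, vitamin D, corticosteroids, haem and calcium phosphate. Most are made by hepatocytes, which transcribe these genes at very high rates. Transthyretin is also made by the choroid plexus and the retinal pigment epithelium, and retinol-binding protein 4 also by adipocytes.

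The labelled tissue was checked against defining markers. Of 14 rod photoreceptor genes 9 were in the count table, while Pde6a, Prph2, Nrl, Rp1 and Rcvrn were absent from it. The rod arrestin gene Sag reached 15 counts with the 9 libraries summed. Of 12 genes of the retinal pigment epithelium 6 were in the count table, while Rpe65, Rlbp1, Rgr, Tyr, Tyrp1 and Mlana were absent. Best1, a chloride channel of that epithelium, had 4 counts in all. All 15 genes of a hepatocyte list that leaves out the carriers were present. Their summed level was 50871 to 51867 CPM (counts per 1000000 counts of the library, scaled with TMM normalization factors) in young, 42193 to 42428 in aged and 43153 to 45055 in EGCG-treated libraries. In every library 6 of the 9 rod genes and 4 of the 6 pigment epithelium genes stayed under 1 CPM. The highest gene of the rod list was Gnat1, rod transducin, at a mean of 29.2 CPM in young and 4.74 CPM in EGCG-treated libraries, and that of the pigment epithelium list was Rdh5, a retinol dehydrogenase, at 16.4, 12.2 and 15.1 CPM. The Mueller glia list, with 7 of 8 genes in the count table, summed to 18.3 to 37.8 CPM. Rod arrestin and Best1 were thus at or near 0 in libraries labelled retina, and the libraries are called below by their group alone. Known extrahepatic sources of Ttr and Rbp4 were looked at too. The 4 choroid plexus genes in the count table, of 7 listed, summed to at most 0.152 CPM in any library. The 5 adipocyte genes in the count table, of 6 listed, summed to 4.06 to 7.68 CPM. Of these Adipoq, Plin1 and Retn had 3, 6 and 6 counts in all, Cfd had 276, and Fabp4, which other cell types also express, had 1612.

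Alb, Gc and Afm belong to the albumin gene family and lie on 1 chromosome. On GRCm38 (GENCODE M21), Alb spans chr5:90460897-90476602 on the plus strand with 15 exons, Afm lies 42.3 kb downstream at chr5:90518932-90553543 on the same strand with 15 exons, and Gc lies 1003.0 kb away at chr5:89417522-89457898 on the minus strand with 13 exons. The 250 bases before the RefSeq start are shown for these 3 genes because neighbours of common descent moved differently here, and for Hpx because it fell furthest. Each is written 5′ to 3′ on the strand of its gene, from the RefSeq table on GRCm38.p6. For Alb, Afm and Hpx the RefSeq start differs from that of the GENCODE span. The Afm and Hpx windows thus run into their spans and the Alb window stops short of its own. Distances are counted from the RefSeq start. Capitals mark every match, on either strand, to 6 motifs: the CCAAT box CCAAT, the D-box TTATGTAA, the C/EBP motif TTGCNNAA, the FOX motif TGTTTAC, the STAT motif TTCNNNGAA and the TATA box TATAAA.
Alb, chr5:90460620-90460869, plus strand: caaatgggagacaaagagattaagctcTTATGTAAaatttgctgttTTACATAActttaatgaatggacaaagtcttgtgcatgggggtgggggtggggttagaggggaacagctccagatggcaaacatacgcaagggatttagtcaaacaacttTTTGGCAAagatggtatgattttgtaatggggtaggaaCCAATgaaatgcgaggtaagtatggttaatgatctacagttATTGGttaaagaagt
Gc, chr5:89457899-89458148, minus strand: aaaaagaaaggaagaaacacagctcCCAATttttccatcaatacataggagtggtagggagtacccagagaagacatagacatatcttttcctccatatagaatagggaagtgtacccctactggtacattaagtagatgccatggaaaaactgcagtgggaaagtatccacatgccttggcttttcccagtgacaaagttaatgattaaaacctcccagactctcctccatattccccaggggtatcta
Afm, chr5:90518699-90518948, plus strand: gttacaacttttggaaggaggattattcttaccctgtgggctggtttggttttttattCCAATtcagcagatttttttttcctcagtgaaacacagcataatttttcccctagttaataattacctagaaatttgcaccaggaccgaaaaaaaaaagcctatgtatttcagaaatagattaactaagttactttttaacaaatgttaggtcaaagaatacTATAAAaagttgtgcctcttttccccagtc
Hpx, chr7:105600117-105600366, minus strand: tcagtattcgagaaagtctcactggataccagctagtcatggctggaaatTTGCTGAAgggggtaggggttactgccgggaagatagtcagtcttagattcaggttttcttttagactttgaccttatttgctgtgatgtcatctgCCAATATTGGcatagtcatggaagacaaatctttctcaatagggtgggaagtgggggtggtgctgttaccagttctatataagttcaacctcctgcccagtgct

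Of the 8 carriers with a promoter looked up, albumin alone matched the D-box letters TTATGTAA. It held 2 copies on opposite strands, 223 and 204 bases before the RefSeq start. Only these exact letters were searched, so a D-box with other letters is not marked. The letters occur in 0.819% of the 32851 promoters of the table. A CCAAT box was found in 7 of 8 carriers, against 33.8% of promoters, and in Hpx its 2 matches adjoin, on opposite strands. No 2 matches in the printed windows share a base. The C/EBP motif was found in Ahsg, Alb, Hpx and Rbp4, against 9.56% of promoters, the TATA box in Afm, Fetub and Rbp4, against 12.4%, and the FOX motif in Fetub and Rbp4, against 3.17%. No STAT motif was found in these windows, against 7.02% of promoters. Fetub and Rbp4 were searched over 2 annotated starts each. A match describes letters in a window and is not a measured binding site.

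The 3 comparisons follow from the groups, and each was tested over all 12747 genes with edgeR's quasi-likelihood test and Benjamini-Hochberg adjustment, called at an adjusted p under 0.05. Most genes were called in each. In aged against young libraries 69.5% of genes were called, 33.4% higher and 36.1% lower. In EGCG-treated against untreated aged libraries 63.3% were called, 31.8% higher and 31.5% lower. In EGCG-treated aged against young libraries 62.9% were called, 30.8% higher and 32.1% lower. The comparisons share libraries, so they are not independent. Of the 10 carriers, 3 were called higher and 7 lower with age, a balance that turned to 6 higher and 2 lower on library totals, 4 higher and 4 lower with EGCG, and 6 higher and 3 lower in EGCG-treated aged against young libraries. On TMM-scaled counts 10, 8 and 9 of the 10 carriers were thus called, against 69.5%, 63.3% and 62.9% of all genes. As most genes were called, a call alone says little, and sizes and directions are given below. On TMM-scaled counts the median log2 change of the carriers was -0.1, 0.04 and 0.09 in the 3 comparisons, against -0.01, 0.008 and 0.02 over all genes tested. The median size of a carrier's log2 change, without regard to sign, was 0.24, 0.2 and 0.2 in the 3 comparisons, against 0.43, 0.35 and 0.39 over all genes tested.

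**Figure D1:**
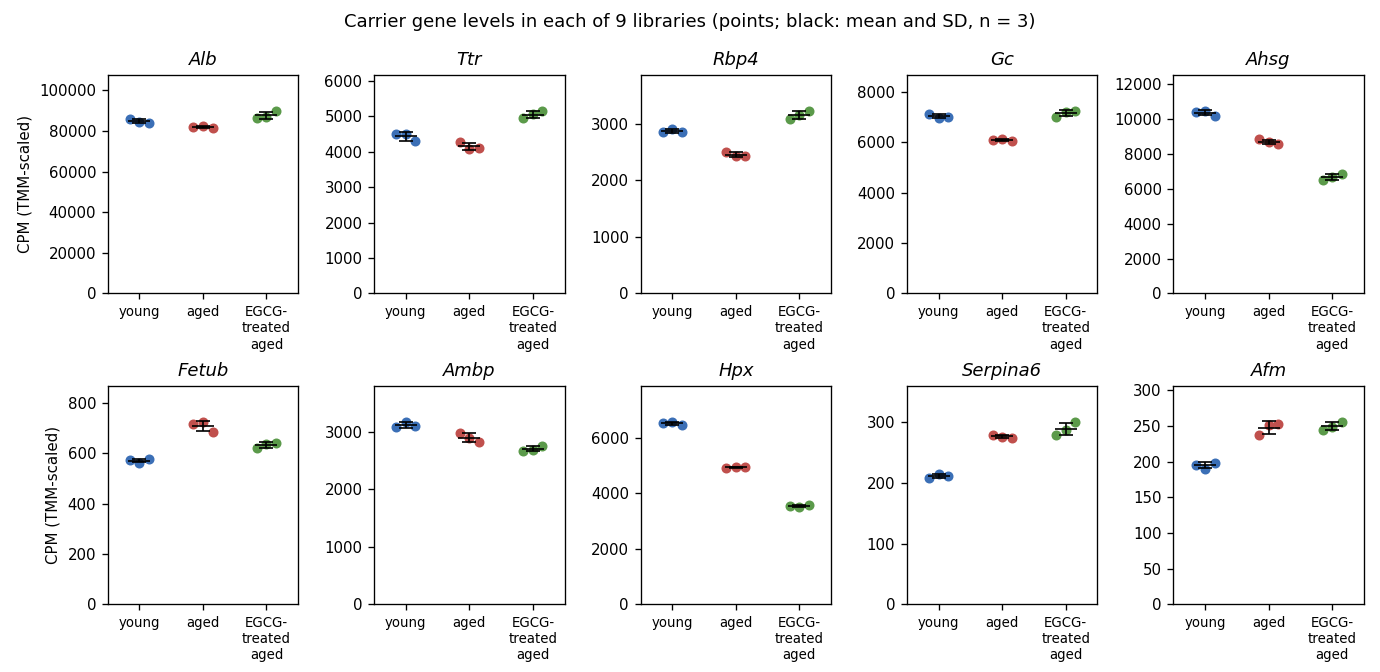
CPM (TMM-scaled) of each of the 10 carrier genes in every library, by group (young, aged, EGCG-treated aged), with the group mean and SD in black; each y axis starts at 0. Hpx and Ahsg step down from young to aged to EGCG-treated libraries, Rbp4, Ttr and Gc have their highest means after EGCG, and Serpina6 and Afm are lowest in the young.

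Albumin, the main carrier of fatty acids and the most abundant plasma protein, differed little between groups. Alb stood at 85709, 84599 and 84069 CPM in the young libraries, at 82180, 82337 and 81355 in the aged, and at 86414, 86809 and 89689 in the EGCG-treated. The 3 groups did not overlap, with EGCG-treated highest and aged lowest. The log2 change with EGCG was 0.10 ± 0.012 (SE, n = 3 per group), an increase of 6.93% (adjusted p = 2.83e-09). The log2 change with age was -0.05 ± 0.012 (adjusted p = 0.000388), and its sign turned with the scaling, since as a share of all counts Alb was higher in aged than in young libraries.

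Gc, the vitamin D-binding protein, also scavenges actin. It stood at 7127, 6983 and 7021 CPM in young, 6091, 6121 and 6073 in aged, and 7018, 7198 and 7240.1 in EGCG-treated libraries. The aged libraries lay below all others, while young and EGCG-treated libraries overlapped. With EGCG the log2 change was 0.23 ± 0.016, an increase of 17.3% (adjusted p = 2.17e-16), and with age -0.21 ± 0.016 (adjusted p = 3.78e-15). The difference between EGCG-treated aged and young libraries was 0.02 ± 0.016 and missed the threshold (adjusted p = 0.236). It was called higher in 5 of 8 scalings, most of which rest on library totals, with 0.2 on library totals themselves (adjusted p = 1.18e-16). The age difference was not called when libraries were scaled by their totals (adjusted p = 0.573).

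Afm, afamin, carries vitamin E. It moved apart from its neighbour Alb. Afm stood at 195.5, 189.8 and 198.0 CPM in young, 236.6, 251.7 and 252.9 in aged, and 244.1, 248.1 and 255.3 in EGCG-treated libraries. All aged and EGCG-treated libraries lay above all young ones, and they overlapped each other. With age the log2 change was 0.35 ± 0.03 (adjusted p = 2.19e-13), with 0.55 on library totals, and with EGCG 0.01 ± 0.03 (adjusted p = 0.742), a value whose sign turned with the scaling. The count of Alb over that of Afm was 436.2 ± 11.0 (SD, n = 3) in young, 332.1 ± 14.0 in aged and 351.8 ± 2.1 in EGCG-treated libraries, so the age difference between these neighbours holds without any scaling. Over that same step the count of Alb over that of Gc went from 12.0 ± 0.071 to 13.4 ± 0.048, and it was 12.3 ± 0.17 after EGCG. Of Afm's distinct 50-base transcript stretches, 2.04% are shared with the gene model Gm42109, and none of Alb's or Gc's are shared with another gene.

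Ttr and Rbp4 travel together in plasma: Rbp4 carries retinol out of the liver, and Ttr, which also carries thyroxine, binds it and keeps it from being filtered by the kidney. Rbp4 had the highest percentage rise with EGCG among the carriers. Rbp4 (chr19:38116629-38125281, minus strand, 6 exons) stood at 2851, 2911 and 2859 CPM in young, 2501, 2433 and 2436 in aged, and 3078, 3150 and 3222.0 in EGCG-treated libraries. The groups did not overlap. With EGCG the log2 change was 0.36 ± 0.019, an increase of 28.2% (adjusted p = 2.24e-20). With age it was -0.23 ± 0.019 (adjusted p = 5.5e-14), a difference not called on library totals (adjusted p = 0.162).

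Ttr followed the same order. It stood at 4502, 4496 and 4285 CPM in young, 4268, 4065 and 4096 in aged, and 4938, 5048 and 5135 in EGCG-treated libraries. The EGCG-treated libraries lay above all others. With EGCG the log2 change was 0.28 ± 0.02, an increase of 21.7% (adjusted p = 1.95e-16). With age it was -0.10 ± 0.02 (adjusted p = 4.1e-05), and this sign turned when libraries were scaled by their totals (0.10). The count of Rbp4 over that of Ttr was 0.649 ± 0.017 in young, 0.593 ± 0.0064 in aged and 0.625 ± 0.0022 in EGCG-treated libraries, with no overlap between the groups.

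Hpx, hemopexin, binds free haem with high affinity and delivers it to the receptor Lrp1. It fell furthest of the 10 carriers. Hpx (chr7:105591613-105600137, minus strand, 10 exons) stood at 6534, 6561 and 6447 CPM in young, 4923.0, 4935 and 4957 in aged, and 3549, 3510.0 and 3564 in EGCG-treated libraries. The groups were wide apart, with young highest and EGCG-treated lowest. With age the log2 change was -0.40 ± 0.016 (adjusted p = 1.16e-24), a fall of 24.2%, with -0.20 on library totals, and with EGCG -0.48 ± 0.016 (adjusted p = 2.35e-27), a fall of 28.3%. From young to EGCG-treated aged libraries it was -0.88 ± 0.016 (adjusted p = 1.39e-37). The count of Hpx over that of Rbp4 went from 2.27 ± 0.022 in young to 2.01 ± 0.037 in aged and 1.12 ± 0.025 in EGCG-treated libraries. The acute-phase haemoglobin binder Hp, haptoglobin, stood at 7591.0 ± 58, 3569 ± 138 and 2907 ± 47 CPM in the 3 groups, with log2 changes of -1.09 ± 0.02 with age and -0.30 ± 0.02 with EGCG (adjusted p = 5.61e-38 and 3.49e-17). Lrp1 went the other way with age, at 1266 ± 14, 1484 ± 23 and 938 ± 6.2 CPM, and Hmox1, which degrades haem, stood at 35.7 ± 0.83, 59.8 ± 2.1 and 15.7 ± 1.3 CPM.

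Ambp encodes alpha-1-microglobulin, a haem and radical scavenger, and bikunin, a protease inhibitor, in 1 precursor. It changed little. Ambp (chr4:63143275-63154799, minus strand, 10 exons) stood at 3090, 3169 and 3095 CPM in young, 2976, 2895 and 2819 in aged, and 2672, 2687 and 2754 in EGCG-treated libraries. The order was young, aged, EGCG-treated, without overlap. With EGCG the log2 change was -0.10 ± 0.019, a fall of 6.64% (adjusted p = 2.56e-05), which upper-quartile scaling did not call (adjusted p = 0.0849). With age it was -0.11 ± 0.019 (adjusted p = 7.26e-06), and on library totals the sign turned (0.09). Bikunin is joined to the heavy chains of the inter-alpha-inhibitor family, and these did not move as 1 group. Itih4, a member that does not join bikunin, fell by 0.73 with age and by 0.56 with EGCG on the log2 scale, and Itih3 by 0.22 and 0.54. Itih1 and Itih2 rose with age, by 0.09 and 0.26, and fell with EGCG by 0.13 and 0.19. All 8 differences passed the test.

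Ahsg and Fetub, the fetuins, bind calcium phosphate and inhibit proteases, and they lie 18.9 kb apart. Ahsg is at chr16:22891277-22899449 (7 exons) and Fetub at chr16:22918334-22939778 (8 exons), both on the plus strand. Ahsg stood at 10428, 10455 and 10199 CPM in young, 8836, 8688 and 8604 in aged, and 6528, 6675 and 6860 in EGCG-treated libraries. It thus had the same order as Hpx, without overlap. The log2 change was -0.25 ± 0.017 with age (adjusted p = 4.09e-17), though only -0.05 on library totals (adjusted p = 0.00184), and -0.38 ± 0.017 with EGCG (adjusted p = 3.16e-23), a fall of 23.2%. Of its 50-base stretches, 0.632% are shared with the gene model Gm30505.

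Fetub differed from Ahsg with age. It stood at 572.5, 563.1 and 575.6 CPM in young, 717.9, 724.4 and 685.3 in aged, and 620.6, 636.2 and 640.9 in EGCG-treated libraries. The aged libraries were highest and the young lowest, without overlap. With age the log2 change was 0.31 ± 0.024 (adjusted p = 3.22e-15), a rise of 24.3%, with 0.51 on library totals, and with EGCG -0.16 ± 0.024 (adjusted p = 1.15e-07). The count of Ahsg over that of Fetub was 18.2 ± 0.43 in young, 12.3 ± 0.28 in aged and 10.6 ± 0.11 in EGCG-treated libraries.

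Serpina6, corticosteroid-binding globulin, carries glucocorticoids and belongs to the serpin protease inhibitors. It rose most of the carriers with age. Serpina6 (chr12:103646630-103657212, minus strand, 5 exons) stood at 209.0, 214.8 and 211.0 CPM in young, 279.4, 276.4 and 274.9 in aged, and 279.9, 287.1 and 300.7 in EGCG-treated libraries. All young libraries lay below the others, and the EGCG-treated libraries began just above the highest aged one. With age the log2 change was 0.39 ± 0.029 (adjusted p = 1.05e-15), a rise of 30.9%, with 0.59 on library totals. With EGCG it was 0.06 ± 0.028 and missed the threshold (adjusted p = 0.0502), which it passed without EGCG replicate 1 (0.09, adjusted p = 0.0129) and without young replicates 1, 2 or 3 (adjusted p = 0.0453, 0.0456 and 0.0491).

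**Figure D2:**
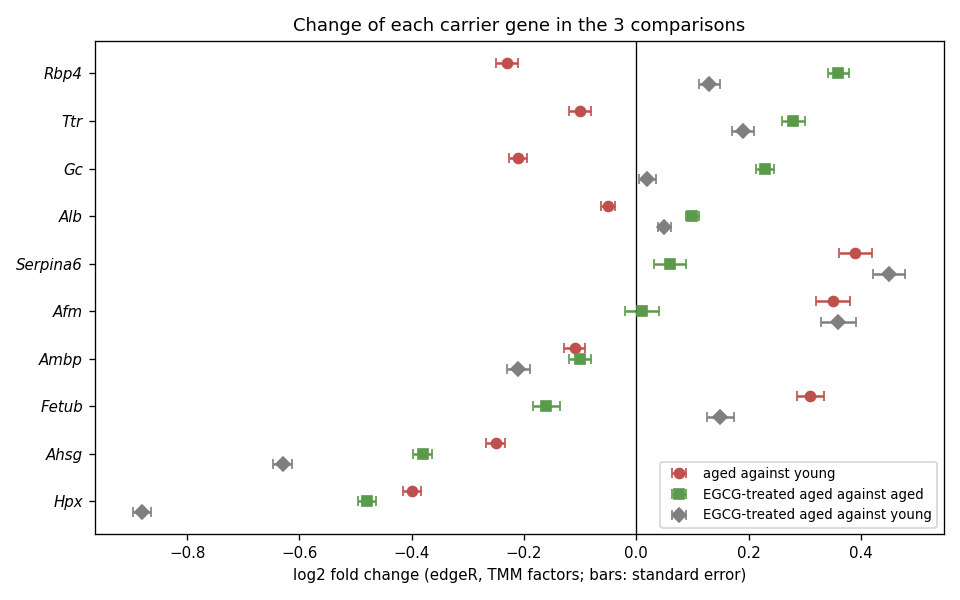
Log2 fold changes of the 10 carriers in the 3 comparisons, from edgeR on TMM-scaled counts; bars are standard errors. Hpx has the lowest values (-0.40, -0.48 and -0.88), Rbp4 the highest with EGCG (0.36) and Serpina6 the highest with age (0.39).

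Beside these differences, markers of other cell types moved between the groups. The 12 macrophage genes, all present, summed to 127 to 129 CPM in young, 608 to 615 in aged and 236 to 250.3 in EGCG-treated libraries, with 12 of 12 called higher with age and 11 of 12 lower with EGCG. The 10 endothelial genes summed to 133 to 136, 290.4 to 299 and 111 to 123 CPM, and the 10 fibroblast and stellate cell genes to 114 to 129, 434 to 440.4 and 182 to 192. On TMM-scaled counts most hepatocyte genes other than the carriers went the other way with age. Of 15, 13 were called lower and 2 higher with age, and 10 higher and 4 lower with EGCG. The signs of Apoa1 and Apoa2 with age, and of Apoa1 and Cyp2e1 with EGCG, turned with the scaling. Beside these marker lists, 33.4% of all genes were called higher and 36.1% lower with age, and 31.8% and 31.5% with EGCG. The part of these markers in the carrier results was not tested, and in bulk libraries fewer cells of a type and less RNA per cell cannot be told apart. Among the carriers, Alb, Ttr, Rbp4 and Gc were called lower with age and higher with EGCG, as most of the hepatocyte list was, though with age the sign of Alb, Ttr and Gc turned with the scaling. Hpx, Ahsg and Ambp were called lower in both steps, where the sign of Ambp with age also turned. Fetub, Serpina6 and Afm were called higher with age.

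Levels between carriers can be compared per length in the deposited FPKM, which divides a scaled count by the length of the gene. Alb ranked first of all genes in every group, at a mean of 37693 FPKM in young, 41834 in aged and 44112 in EGCG-treated libraries. Ahsg was next among the carriers, at 6409, 6186 and 4684 FPKM. In young libraries Hpx (4033), Gc (3561), Ttr (3078), Ambp (2255), Rbp4 (2030.0), Fetub (293), Serpina6 (120.3) and Afm (88.1) followed, and no neighbours in this order overlapped over the 3 libraries. In aged libraries Gc (3539) and Hpx (3510.4) overlapped. In EGCG-treated libraries Gc (4095) and Ttr (3967) stood above Rbp4 (2519) and Hpx (2482), which overlapped each other. Among all genes Hpx had rank 15 in young and 24 in EGCG-treated libraries, and Rbp4 rank 36 and 22.

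Together the 10 carriers took 11.0 ± 0.057% (SD, n = 3) of all counts in young, 11.8 ± 0.048% in aged and 12.1 ± 0.12% in EGCG-treated libraries. The order holds for shares of all counts: the log2 ratio of aged to young was 0.104 there but -0.095 on TMM effective sizes, that of EGCG-treated aged to young 0.142 but -0.037, and that of EGCG-treated to untreated aged 0.038 but -0.072 in summed FPKM. As shares of all counts the groups did not overlap, and the exact permutation test, two-sided, gave p = 0.1 for each pair of groups, the smallest that 3 against 3 libraries allow. Alb accounted for most of it, with 7.77 ± 0.041%, 8.62 ± 0.039% and 9.09 ± 0.1% of all counts, and its ratio of aged to young turned likewise, from 0.15 to -0.049 on TMM effective sizes, as did that of EGCG-treated to untreated aged, from 0.077 to -0.023 in FPKM. The other 9 carriers summed to 3.24 ± 0.026%, 3.21 ± 0.024% and 3.05 ± 0.027%, with overlap between young and aged libraries (exact permutation p = 0.2). In these 12 tests of shares no adjusted value can pass 0.05.

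Within the carrier pool the make-up shifted. Albumin was 70.6 ± 0.16% of carrier counts in young, 72.9 ± 0.16% in aged and 74.8 ± 0.15% in EGCG-treated libraries. Over the same groups Ahsg went from 8.63% to 7.75% and 5.71%, and Hpx from 5.42% to 4.39% and 3.02%. Gc stood at 5.86%, 5.42% and 6.11%, Ttr at 3.69%, 3.68% and 4.31%, and Rbp4 at 2.39%, 2.18% and 2.69%. Fetub, Serpina6 and Afm each stayed under 1% of the pool in every group. These shares do not depend on the scaling of a library, although a rise of Alb lowers all others.

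**Figure D3:**
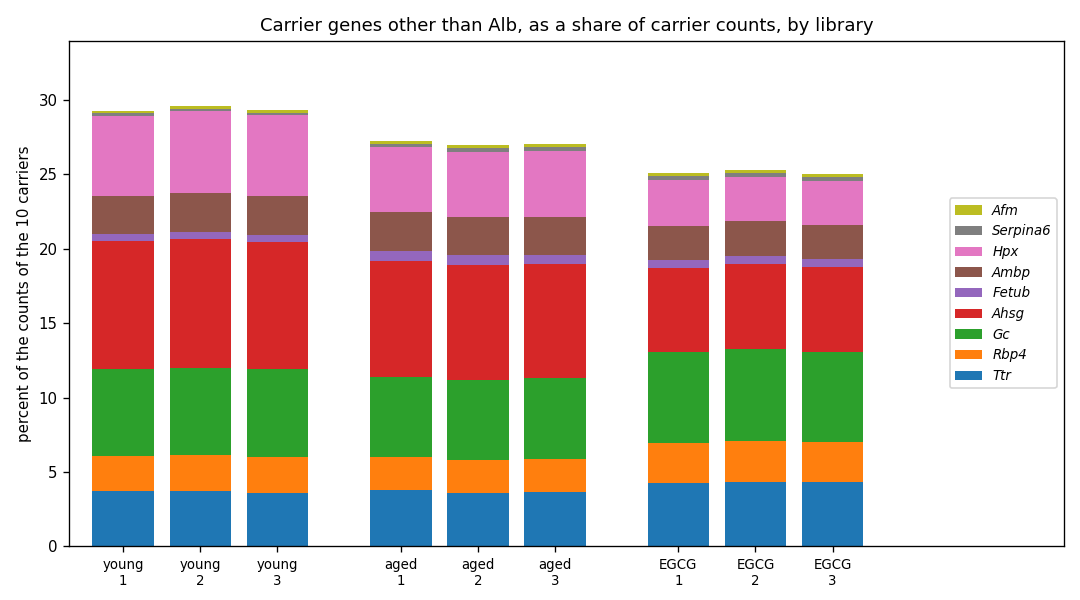
Share of all carrier counts taken by each of the 9 carriers other than albumin, by library, as stacked bars in percent; the rest up to the whole is Alb. Hpx and Ahsg narrow from young to EGCG-treated libraries (5.42% to 3.02% and 8.63% to 5.71%), and Ttr, Rbp4 and Gc are widest after EGCG.

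How libraries are scaled bears on the age comparison more than on the EGCG one. TMM factors were 0.9115 to 0.9197 in young, 1.0486 to 1.0553 in aged and 1.027 to 1.0456 in EGCG-treated libraries. Relative to TMM, scaling by library totals raised the median log2 change of all genes from -0.01 to 0.18 with age, and the share of called genes that were higher from 48.1% to 67.3%. From young to EGCG-treated aged libraries that share went from 49.0% to 66.8%. The 8 scalings and tools are not separate checks. The settings on totals, with or without the carriers, and the FPKM fits all rest on library totals, and RLE and DESeq2 gave near-equal values. Over these 8, Serpina6 (0.39 to 0.60), Afm (0.35 to 0.56) and Fetub (0.31 to 0.53) were called higher with age in all 8, and Hpx (-0.40 to -0.19) and Ahsg (-0.25 to -0.04) lower in all 8. Alb (-0.05 to 0.16), Ttr (-0.10 to 0.12) and Ambp (-0.11 to 0.11) turned sign, and Rbp4 and Gc were called lower in 4 of 8. Relative to the median of all genes in the same scaling, Rbp4 lay at -0.21 to -0.13 and Gc at -0.19 to -0.11. With EGCG, Rbp4 (0.34 to 0.42), Ttr (0.26 to 0.34), Gc (0.21 to 0.29) and Alb (0.08 to 0.16) were called higher in all 8, and Hpx (-0.50 to -0.42), Ahsg (-0.40 to -0.32) and Fetub (-0.18 to -0.11) lower in all 8.

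**Figure D4:**
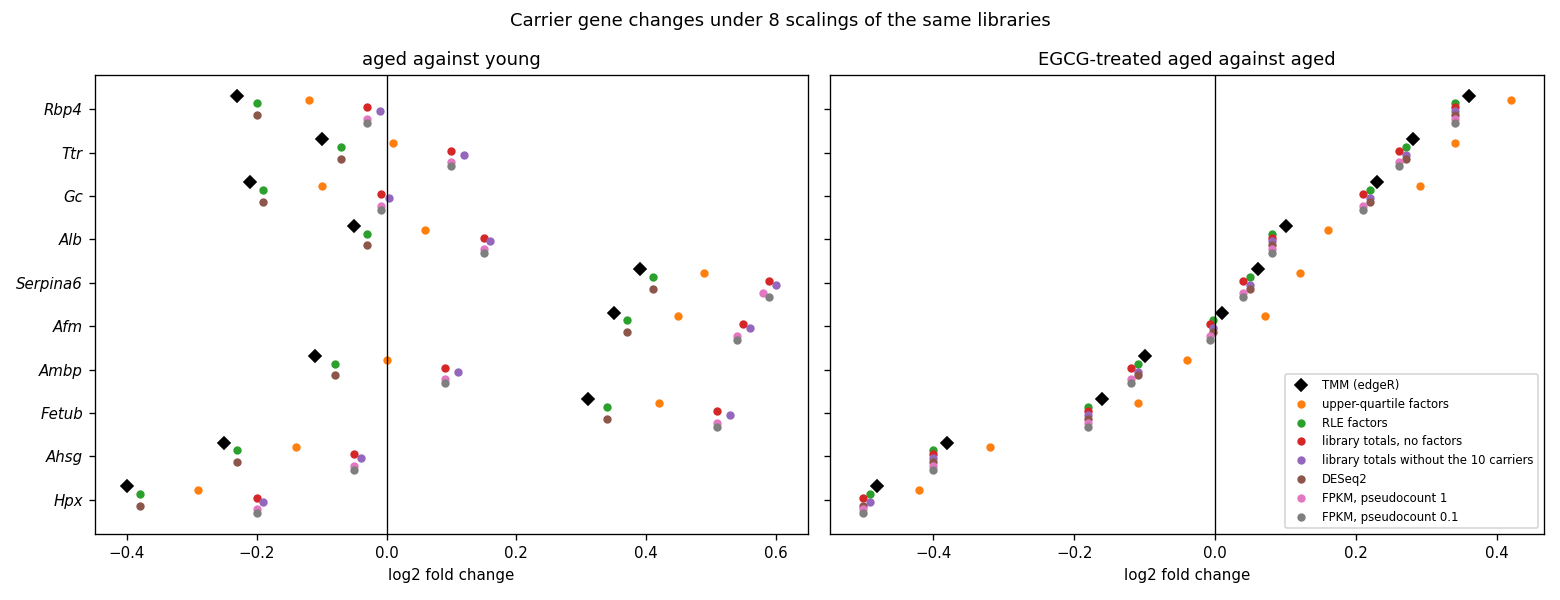
Log2 fold changes of the 10 carriers (x axis) under 8 scalings and tools (colours), for aged against young libraries on the left and EGCG-treated against untreated aged on the right. With age Alb, Ttr and Ambp lie on both sides of 0, and Gc has 1 value just above it, while with EGCG all carriers except Afm keep 1 side in all 8.

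The other genes of the system were taken from lists. Of 19 further plasma carriers and partners tested, 9 were called higher and 8 lower with age, and 6 higher and 10 lower with EGCG (medians -0.04 and -0.13). Of all genes tested, 33.4% were called higher and 36.1% lower with age, and 31.8% higher and 31.5% lower with EGCG. Orm1 and Orm2, the orosomucoids, which bind basic drugs in plasma, differed from each other: Orm1 had log2 changes of -1.21 with age and 0.17 with EGCG, and Orm2 0.15 and -2.56, all past the test. Afp, the fetal member of the albumin family, was low, at 0.902, 0.413 and 0.247 CPM. Of 10 receptors and recycling genes tested, 7 were called higher and 1 lower with age, and 1 higher and 6 lower with EGCG (medians 0.49 and -0.62). The macrophage and endothelial lists moved the same way (12 of 12 and 9 of 10 called higher with age, 11 of 12 and 10 of 10 lower with EGCG), Stab2 stands on the endothelial list too, and the part of those cells here was not tested. Stab1 and Stab2, scavenger receptors of sinusoidal endothelium, rose with age by 0.89 and 1.58 and fell with EGCG by 1.13 and 1.80. Fcgrt, the receptor that recycles albumin, stood at 122, 134 and 128 CPM and was called with age alone (0.14, adjusted p = 0.000936), which is no test of a difference between the comparisons.

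Genes of the metabolism of the carriers' cargo were counted next. Of 13 tested, 7 were called higher and 5 lower with age, where 69.5% of all genes were called, and 7 higher and 3 lower with EGCG, where 63.3% were (medians 0.62 and 0.17). Cyp26a1, which clears retinoic acid, stood at 24.7 ± 1.1, 43.7 ± 1.3 and 211 ± 6.6 CPM, with a log2 change of 2.27 ± 0.041 with EGCG (adjusted p = 8.67e-38). Dio1, which activates thyroid hormone, fell by 1.32 with age and rose by 1.05 with EGCG, and Thrsp, a thyroid hormone-responsive gene of lipid synthesis, fell by 3.18 and rose by 1.63. Tat, a glucocorticoid-induced enzyme of tyrosine breakdown, fell by 1.15 and rose by 0.50.

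Of 20 transcription factors known at carrier promoters, 4 were called higher and 11 lower with age, and 5 higher and 13 lower with EGCG (medians -0.15 and -0.26). The shares of all genes called higher and lower were 33.4% and 36.1% with age, and 31.8% and 31.5% with EGCG. Hnf4a, a nuclear receptor of hepatocytes, stood at 921 ± 6.9, 777 ± 3.7 and 576 ± 8.4 CPM. Dbp is a clock-controlled factor named for its binding to a D-box of the albumin promoter, a site not identified with the matches printed above. Dbp stood at 53.5 ± 1.9, 51.5 ± 1.4 and 2.62 ± 0.44 CPM, and its log2 change with EGCG was -4.29 ± 0.082 (adjusted p = 8.38e-37), while Alb rose by 0.10. Its relative Tef fell by 1.55 with EGCG and Cebpb fell by 1.81. Hlf, of the same list, changed far less, at 37.2, 36.2 and 32.6 CPM in the 3 groups (-0.15 with EGCG, adjusted p = 0.0291). Prox1, a factor of hepatocyte and lymphatic identity, fell by 1.79 with age and rose by 1.02 with EGCG. Cebpa rose with age by 0.73 and with EGCG had 0.0016 (adjusted p = 0.963), with a sign that turned with the scaling. No source used here gives the time of day of collection.

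Of 15 genes that fold and export secretory proteins, 14 were called lower and 1 higher with age, and 12 higher and 2 lower with EGCG. Among all genes tested, 36.1% were called lower and 33.4% higher with age, and 31.8% higher and 31.5% lower with EGCG. Xbp1, a factor of the unfolded protein response, fell by 1.56 with age and rose by 0.53 with EGCG. Hspa5, the chaperone BiP, fell by 1.05 and rose by 0.23, Lman1, an export receptor, fell by 0.94 and rose by 0.48, and Calr, a lectin chaperone, fell by 0.71 and rose by 0.74. The list's median log2 change was -0.58 with age and 0.41 with EGCG, against -0.01 and 0.008 over all genes tested. From young to EGCG-treated aged libraries, 9 further carriers and partners were called higher and 8 lower, and 2 receptors higher and 4 lower. In ligand metabolism 8 genes were called higher and 3 lower, among transcription factors 5 and 15, and among folding genes 0 and 11. In that comparison 30.8% of all genes tested were called higher and 32.1% lower. The share of called genes that were higher was 49.0% under TMM and 66.8% on library totals.

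The genes whose profile over the 9 libraries lay nearest to each carrier were sought among 2554 genes of at least 50 CPM, as the root mean square difference of centred log2 CPM. Nearest to Alb was Proc, protein C, at 0.013. Nearest to Ahsg were Hnf4a (0.031), Ctsl (0.032) and Selenop (0.035), nearest to Hpx Etf1 (0.02), nearest to Gc Rpsa and Prdx6 (0.018 each) and nearest to Ttr Spr (0.018). For Rbp4 it was Bcap31 (0.02), for Ambp Rplp0 (0.022), for Fetub Ctsh (0.023), and for Serpina6 and Afm Gjb1 and Degs1 (0.032 each). No carrier was among the 3 nearest genes of another. These distances describe 3 group levels and the spread of 9 shared libraries, and say nothing of shared control.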

How the data were processed

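Bulk RNA-seq was analysed for 9 mouse libraries in 3 groups of 3. A Qiagen RNeasy kit and a SMARTER mRNA-seq kit were used, per the labels' protocols. Raw counts for 16231 gene symbols and FPKM values of those genes were deposited by the authors. GRCm38 and mm10 are the builds listed in the submitters' processing notes. How reads were aligned and counted, with which annotation and whether by strand, is stated in no source used here. The design text speaks of duplicates, and all pairs of libraries within a group differed by more than sampling noise.

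The deposited counts were filtered with filterByExpr (minimum count 10), scaled by TMM and tested with edgeR 4.0.16 (R 4.3.3), all 9 libraries in 1 fit (biological coefficient of variation 5.37%). Group shares were compared with exact permutation tests (SciPy 1.17.1). Alternatives were other scalings, DESeq2 1.42.0, limma 3.58.1 on log2(FPKM + 1) and log2(FPKM + 0.1), no filter, 2 groups only, a replicate block and each library left out. The edgeR test was tried on simulated counts. Few genes changed in these counts, unlike in the libraries, so they do not test the choice of scaling. Some listed genes and 1 motif are not reported here. The members and lists were chosen with earlier results of these data known. All 10 carriers are named, up to 4 genes per pathway list by smallest p, genes that a result needs, and 3 nearest genes sought per carrier. Promoters of 8 carriers came from RefSeq, and coordinates from GENCODE M21 by symbol.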

Additional observations from a re-analysis of the deposited data

How the results depend on the processing

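With EGCG against untreated aged libraries, the calls of Rbp4, Ttr, Gc, Alb, Hpx, Ahsg and Fetub kept their direction and side of the threshold under all 8 scalings and tools. With age, carriers called lower were 4 under upper-quartile scaling, and 2, with 6 called higher, under library totals, under totals without the carriers and under limma on FPKM with either pseudocount. In those 4 settings genes called lower with age were 2878, 2786, 2822 and 2821 (4596 under TMM), and from young to EGCG-treated aged libraries 2678, 2656 and 2673 in the last 3 (4087 under TMM).

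In the order upper quartile, totals, totals without carriers and FPKM with pseudocounts 1 and 0.1, the log2 change with age turned to 0.06, 0.15, 0.16, 0.15 and 0.15 for Alb, to 0.01, 0.1, 0.12, 0.1 and 0.1 for Ttr, and to 0.0006, 0.09, 0.11, 0.09 and 0.09 for Ambp. Gc turned to 0.0041 under totals without carriers. The call of Alb with age was lost under RLE (-0.03, adjusted p = 0.0534), DESeq2 (adjusted p = 0.157) and 2 groups only (adjusted p = 0.0514). Afm with EGCG, not called, turned to -0.003 (RLE and DESeq2), -0.0081 (totals), -0.0029 (without carriers), -0.0073 (both FPKM fits), -0.02 without aged replicate 1 and -0.0032 without EGCG replicate 3 (-0.02 to 0.03 over libraries left out), and upper-quartile scaling called it higher (0.07, adjusted p = 0.0405). Serpina6 with EGCG was called under upper-quartile scaling (0.12, adjusted p = 0.000372) and without a filter (adjusted p = 0.0384). The cause was not tested beyond the scaling itself.

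The log2 ratio of the carriers' summed share with age was 0.104 of all counts, -0.095 on TMM effective sizes, 0.118 on totals without carriers and 0.157 of summed FPKM. With EGCG it was 0.038, with 0.059 (TMM) and -0.072 (FPKM), and from young to EGCG-treated aged 0.142, with -0.037, 0.161 and 0.086. For Alb the same ratios were 0.15, with -0.049, 0.164 and 0.215, then 0.077, with 0.097 and -0.023, and 0.227, with 0.048, 0.246 and 0.192. Alb within the carriers by FPKM gave 0.058, 0.048 and 0.106 (0.046, 0.038 and 0.084 by counts).

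Libraries with the same replicate number did not deviate together (r = -0.061 to 0.02). With 3 libraries a group this shows no shared deviation, but it cannot exclude that the numbers pair libraries. With the replicate block 8749, 7957 and 7907 genes and 10, 8 and 9 carriers were called in the 3 comparisons. With 1 library left out, 8396 to 8943, 7457 to 8177 and 7605 to 8014 genes were called, and 10, 8 to 9 and 9 carriers. At 34240500 or more counts per library depth does not limit the carriers. The precision rests on 3 libraries a group.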
